A study of Mus musculus with 12 samples.

Results

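The Serpina1 and Serpina3 copies are serine protease inhibitors (serpins) that lie side by side on mouse chromosome 12. They were followed in primary mouse hepatocytes that carried a knock-in of AEG-1 (L24K/L25H) or were wild type. The set held 10 genes of the 46983 listed in the count files: Serpina1a, Serpina1b, Serpina1c, Serpina1d and Serpina1e, and Serpina3c, Serpina3g, Serpina3k, Serpina3m and Serpina3n. They were chosen by the counts of Serpina1e, which were far lower in knock-in than in wild-type cells, and the other copies were added by name and place. The difference of Serpina1e between the genotypes, with and without treatment, and the untreated comparison of the genotypes for all copies are therefore given as a description, with no test. All 10 copies passed the filter on low counts.

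The 12 libraries formed 4 groups of 3: KI hepatocytes (AEG-1-L24K/L25H) treated for 24 h with 2.5 µM CP775146, which activates PPAR-alpha, a nuclear receptor for fatty acids, KI hepatocytes left untreated, WT hepatocytes (AEG-1-WT) given CP775146, and WT hepatocytes left untreated. The dose unit was read from a symbol-font character in the label. AEG-1, encoded by Mtdh, is a protein known from cancer and inflammation, and the knock-in changes 2 of its amino acids. Per the labels, the line was made with CRISPR/Cas9 in the C57BL/6/J background, and both genotypes were littermates from crosses of heterozygotes kept on regular chow. No vehicle is named for the untreated cells, the age of the mice is not given for these cells, and the labels do not say which libraries came from separate animals or cultures, so p-values cover only the spread between these libraries.

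Alpha-1-antitrypsin, the product of the Serpina1 genes, is secreted by hepatocytes in large amounts and protects tissue from neutrophil elastase. The Serpina3 genes are the mouse relatives of human alpha-1-antichymotrypsin, an acute-phase protein of the liver. A serpin offers an exposed reactive centre loop as bait, and the protease that cuts the loop is trapped by a large change of shape. Where humans have a lone gene, mice carry repeated copies whose loops differ, and the number of Serpina1 copies is known to differ between mouse strains.

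The copies occupied 686 kb of chromosome 12 in the GRCm38 (mm10) build. The 5 Serpina1 copies all lay on the minus strand, from Serpina1b at chr12:103728156-103830373 through Serpina1d at chr12:103763594-103773592, Serpina1a at chr12:103853589-103863562 and Serpina1c at chr12:103894926-103904887 to Serpina1e (ENSMUSG00000072849) at chr12:103946931-103958975. Of the Serpina3 copies, Serpina3c at chr12:104146382-104153870 was on the minus strand. Serpina3g at chr12:104236245-104241939, Serpina3k at chr12:104338486-104346144, Serpina3m at chr12:104338486-104394257 and Serpina3n at chr12:104406729-104414329 were on the plus strand.

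The Serpina1 copies are nearly the same sequence, and the place where they differ most is shown here because it is where reads can be told apart. Their coding sequences in GENCODE M21 (GRCm38) all had 1239 bases, and 86 positions (6.94%) varied among the 5 copies. The 60 coding bases with most variation were bases 1102 to 1161, counted from the start codon, with 18 variable positions. This stretch holds the part that encodes the reactive centre loop. It lay within 1 exon of each copy, on the minus strand, and is written 5′ to 3′ with the variable positions in capitals.
Serpina1a, chr12:103853756-103853815: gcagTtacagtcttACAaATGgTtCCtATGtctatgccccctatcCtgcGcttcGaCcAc
Serpina1b, chr12:103728323-103728382: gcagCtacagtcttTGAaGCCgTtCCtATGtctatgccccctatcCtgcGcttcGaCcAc
Serpina1c, chr12:103895093-103895152: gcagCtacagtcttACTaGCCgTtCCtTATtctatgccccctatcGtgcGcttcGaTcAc
Serpina1d, chr12:103763761-103763820: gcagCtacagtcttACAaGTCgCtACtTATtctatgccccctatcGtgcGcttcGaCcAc
Serpina1e, chr12:103947099-103947158: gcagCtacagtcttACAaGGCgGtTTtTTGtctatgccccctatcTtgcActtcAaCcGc

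Outside this stretch long runs were the same in all 5 copies, the longest with 226 bases (coding bases 337 to 562). A read that falls inside such a run matches every copy. Pairs of Serpina1 copies were 96.3% to 98.5% identical over their coding bases (10 pairs), pairs of Serpina3 copies 82.3% to 92%, and copies of different clusters 61% to 67.7% (25 pairs). Serpina1e differed from the other 4 copies, which were alike, at 17 positions.

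The share of each coding sequence that another copy also holds was counted in words of 50 bases. It was 39% for Serpina1e, the lowest of the Serpina1 copies, against 44.7% for Serpina1b, 51% for Serpina1d, 74.5% for Serpina1a and 74.7% for Serpina1c. For the Serpina3 copies it was 4.74% (Serpina3c) to 24.6% (Serpina3m). At 100 bases, 19.1% of the words of Serpina1e were shared. The counting used no option for reads that map to several places. The read length and how the aligner placed or marked such reads are not given in the sources used here. How the shared part was divided among the Serpina1 copies, or left out, was therefore not tested. A read given to any copy of a cluster enters the cluster's sum, so sums are given beside each copy, and a read given to no copy is missing from both.

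Annotated exons overlapped another gene in 3 of the 10 copies. Serpina1c shared 429 of its 1361 exonic bases (31.5%) with the antisense gene B430119L08Rik, and the counting used no strand and no option for overlapping genes. By the counter's default a read that overlaps exons of both genes is given to neither, so the level of B430119L08Rik does not show how many Serpina1c reads were left out. B430119L08Rik itself had at most 0.605 CPM as a group mean (untreated KI), against 320.1 CPM for Serpina1c in the same group. Serpina3k and Serpina3m shared 60 bases, 2.92% and 3.49% of their exonic lengths.

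Total counts were 26956032 to 34885451 per library, and 15664 genes passed the filter. Values below are CPM, counts set relative to sequencing depth, on library sizes scaled by TMM, a factor that sets aside the most changed genes. On this scale 3 counts come to 0.0844 to 0.113 CPM, depending on the library. Biological variation, as a coefficient, was 2.63% in treated KI, 2.59% in untreated KI, 5.33% in treated WT and 5.1% in untreated WT. Mtdh, the gene of AEG-1, had 190 to 197 CPM in treated KI, 171 to 175 in untreated KI, 177 to 186 in treated WT and 157 to 174 in untreated WT, and a level does not check a change of 2 codons. All 12 libraries had 48945 to 68385 counts of Xist and at most 7 of any of 4 Y-linked genes.

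Markers of hepatocytes were high in every library, and their summed level was lower in KI. The 8 hepatocyte markers added up to 81059.5 to 83691 CPM in treated KI, 89457 to 93985 in untreated KI, 125461 to 131861 in treated WT and 126212 to 128786 in untreated WT. The 6 macrophage markers summed to 106 to 120.3 CPM in treated KI, 152 to 161 in untreated KI, 185 to 189 in treated WT and 212 to 252 in untreated WT. Endothelial markers (6) summed to 34.2 to 51.2 CPM over the KI libraries and 65 to 86.5 over the WT libraries. Stellate markers (6) summed to 64.6 to 118 CPM in KI and 155 to 214 in WT. Cholangiocyte markers (5) went the other way, with 40.8 to 52.5 CPM in KI and 15.1 to 33.7 in WT. The 6 neutrophil and lymphocyte markers added up to at most 0.511 CPM in any library, and Cd3e was at 0 in both KI groups and in untreated WT. Between treated KI and treated WT, 2 of 8 hepatocyte markers rose and 6 fell, and 2 of 6 macrophage markers rose and 1 fell. Of the markers tested, 2 of 5 endothelial and 1 of 5 stellate markers fell, and 3 of 5 cholangiocyte markers rose. Over all tested genes, 20.5% were called higher and 22% lower in this comparison. Single genes carried most of the hepatocyte, macrophage, endothelial and stellate sums. For the hepatocyte sum this was Alb, with 65623 CPM in treated KI and 107664 CPM in treated WT. Cd68 had 110.1 CPM in treated KI and 185 CPM in treated WT, Stab2 24.4 and 52.8 CPM in the same groups, and Reln 67.1 and 168 CPM. The macrophage markers that rose were Clec4f and Vsig4, each under 1 CPM. In bulk RNA, fewer cells of a type and less RNA per cell cannot be told apart, and the part of these shifts in the results below was not tested.

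Serpina1e was the copy that set KI apart from WT, whether or not the cells had been treated. In treated KI it had 58.6, 60 and 57 CPM, and in untreated KI 53.2, 59.1 and 55.4 CPM. Treated WT libraries had 499.8, 514 and 526 CPM, and untreated WT libraries 522, 557 and 475 CPM. The highest KI library, at 60 CPM, lay far below the lowest WT library, at 475 CPM.

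In treated KI, Serpina1e was 8.77-fold lower than in treated WT (log2 fold change -3.13 ± 0.05 SE, n = 3 each), with no test because its level in the knock-in chose the copies. Of the 15664 genes tested, 8 had a lower fold change in this comparison. In the untreated pair its mean was 55.9 ± 2.98 CPM in KI and 518 ± 41.3 CPM in WT (SD, n = 3 each), 9.27-fold lower, and 5 genes had a lower fold change. The KI libraries still held 1687 to 2025 counts given to Serpina1e each. Whether these were reads of Serpina1e or reads that other copies share with it was not tested.

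The remaining Serpina1 copies were lower in KI by far less. Serpina1b, the copy with most counts, had 909, 957 and 958 CPM in treated KI, against 1256, 1218 and 1300.2 CPM in treated WT (log2 fold change -0.42 ± 0.04 SE, edgeR adjusted p = 2.22e-10). Serpina1d had 546, 584 and 551 CPM in treated KI, against 757, 741 and 779 CPM in treated WT (-0.44 ± 0.05, edgeR adjusted p = 3.15e-08). After Serpina1e, which shares least of the Serpina1 copies and differed most, these copies share least and differed least between the genotypes. Whether sharing bears on the differences was not tested.

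Serpina1a had 129, 134 and 133 CPM in treated KI, against 226, 211 and 231 CPM in treated WT (log2 fold change -0.75 ± 0.05 SE, edgeR adjusted p = 2.2e-13). Serpina1c had 276, 274 and 264 CPM in treated KI, against 465, 453 and 487 CPM in treated WT (-0.79 ± 0.08, edgeR adjusted p = 3.29e-06). In none of the 5 Serpina1 copies did treated KI and treated WT libraries overlap. In the untreated pair the same copies had log2 fold changes of -0.21 (Serpina1b), -0.44 (Serpina1d), -0.67 (Serpina1a) and -0.80 (Serpina1c), given as a description.

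**Figure D1:**
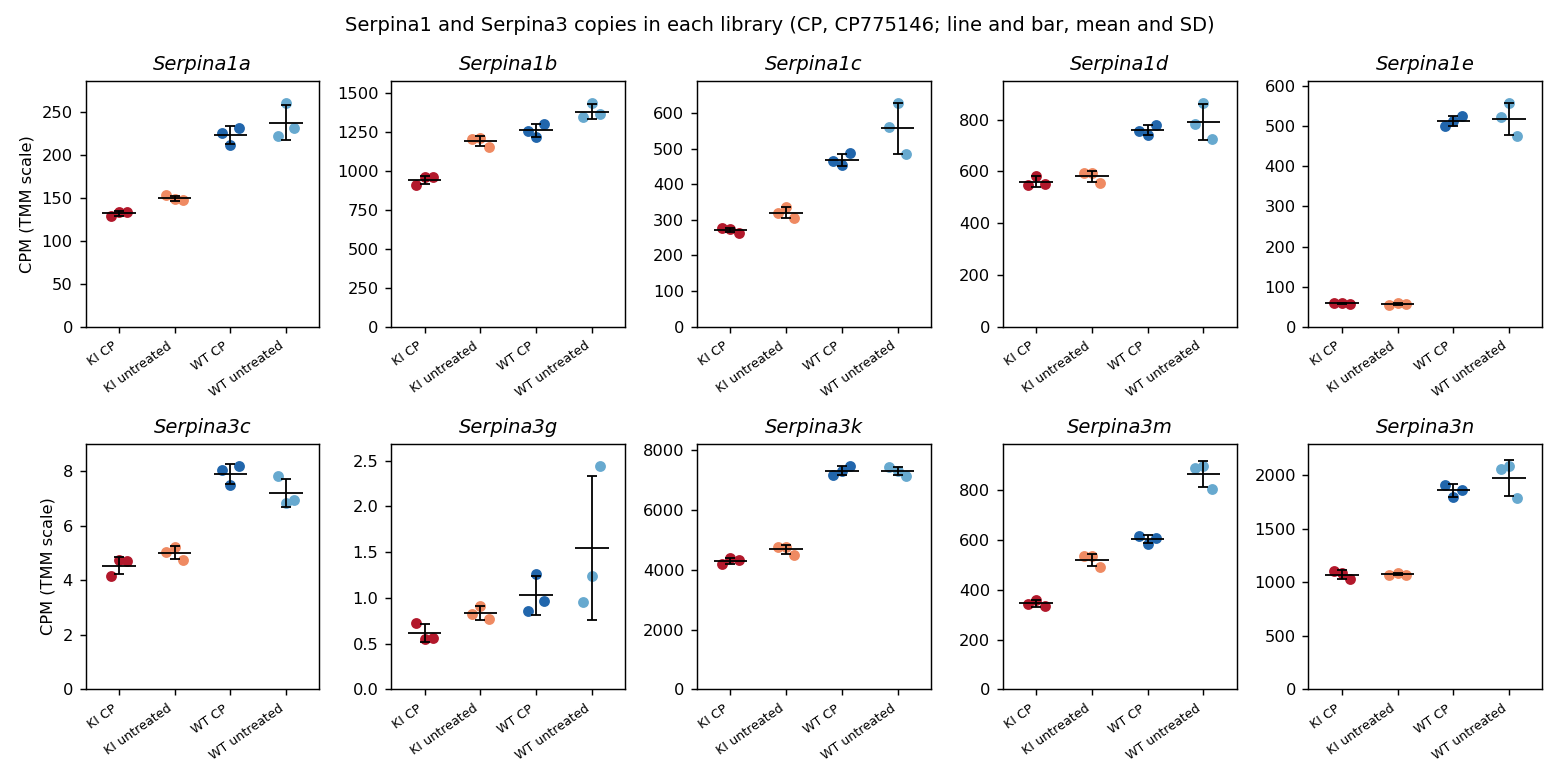
Level of each copy in CPM on the TMM scale, on a linear axis from 0, for the 3 libraries of each group (points), with the mean and SD. In Serpina1e the 6 KI libraries sit at 53.2 to 60 CPM and the 6 WT libraries at 475 to 557 CPM. In all 10 copies the treated KI libraries lie below the treated WT libraries.

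The Serpina3 copies were lower in KI by a similar amount to each other. Serpina3k, known as a binding protein of kallikrein and the highest copy, had 4201, 4401 and 4324 CPM in treated KI, against 7167, 7303 and 7470.3 CPM in treated WT (log2 fold change -0.76 ± 0.04 SE, edgeR adjusted p = 1.44e-16). Serpina3n, an acute-phase inhibitor of granzyme B, had 1104, 1086 and 1030.1 CPM in treated KI, against 1913, 1799.7 and 1866 CPM in treated WT (-0.79 ± 0.05, edgeR adjusted p = 6.98e-14). Serpina3m had 341, 361 and 335 CPM in treated KI, against 615, 585 and 609 CPM in treated WT (-0.80 ± 0.04, edgeR adjusted p = 7.81e-15). Each of these lay between 1.7-fold and 1.74-fold lower in treated KI, with no library of the genotypes overlapping.

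The low copies followed the same direction. Serpina3c had 4.16, 4.75 and 4.7 CPM in treated KI, against 8.02, 7.49 and 8.18 CPM in treated WT (log2 fold change -0.80 ± 0.10 SE, edgeR adjusted p = 8.1e-08). Serpina3g, best known from immune cells, where it inhibits lysosomal cathepsins, had 0.73, 0.552 and 0.563 CPM in treated KI, against 0.854, 1.26 and 0.967 CPM in treated WT. It did not pass the threshold (-0.74 ± 0.31, edgeR adjusted p = 0.0552) and held only 18 to 68 counts per library. In a fit of the treated groups alone its adjusted p was 0.0251, and 0.0276 with the replicate number as a block in that fit. It was 0.034 with no filter on low counts and 0.0183 without untreated WT replicate 3. It was also called without untreated WT replicate 1 (0.035), without treated WT replicate 1 (0.0481) and with the replicate block within each genotype (0.0484). These were 7 of 21 alternatives, and in the other 14 it was not called. Its log2 fold change was -0.87 to -0.56 over all 21. In the untreated pair the Serpina3 log2 fold changes were -0.52 (Serpina3c), -0.64 (Serpina3k), -0.73 (Serpina3m), -0.87 (Serpina3n) and -0.89 (Serpina3g), as a description.

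Between treated KI and treated WT, 8 of the 9 copies other than Serpina1e fell and 1 was not called, where 22% of all tested genes were called lower, 20.5% higher and 42.5% in either direction. All 10 copies had treated KI libraries below all treated WT libraries, where 26.3% of tested genes did. The median log2 fold change of the copies was -0.78, against -0.01 over all tested genes. This count and this median include Serpina1e, which chose the copies, and are given as a description. The median of the Serpina3 copies alone was -0.79. In the untreated pair, all 10 copies were lower without overlap, where 23.8% of tested genes were so, 47.4% did not overlap in either direction, 18.6% were called lower and 37% were called in either direction, and nothing is read from this count. With scaling by total counts alone, the median log2 fold change of all genes was 0.124 in the treated pair and 0.098 in the untreated pair, against -0.01 and 0 with TMM, and all 10 copies stayed below 0 in both.

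**Figure D2:**
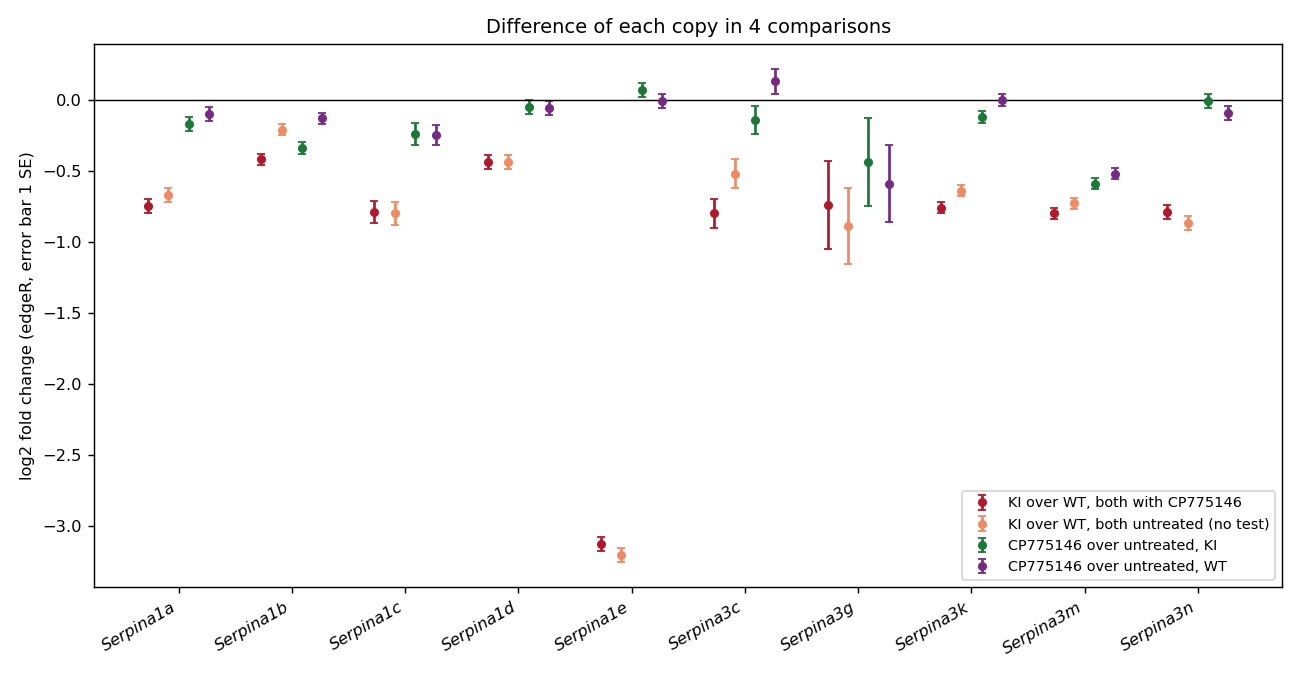
Log2 fold change of each copy (edgeR, error bar 1 SE) between KI and WT, treated and untreated, and between CP775146 and untreated cells of each genotype. Serpina1e lies at -3.13 and -3.21 between genotypes, every other copy lies between -0.89 and -0.21 there, and Serpina3m has the lowest called value for CP775146 in both genotypes (-0.59 in KI, -0.52 in WT).

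The cluster sums, which do not depend on how counted reads were split between copies of a cluster, were also lower in KI. The Serpina1 sum was 1919, 2010.4 and 1963 CPM in treated KI, against 3204, 3136 and 3324 CPM in treated WT. In untreated cells it was 2318, 2348 and 2219 CPM in KI, against 3430.5, 3739 and 3278 CPM in WT. The ratio of KI to WT means was 0.61 with CP775146 and 0.659 without it. Without Serpina1e the sum was 1905 ± 45.1 CPM in treated KI, against 2708 ± 87.6 CPM in treated WT, and 2239 ± 66.5 CPM in untreated KI, against 2964 ± 196 CPM in untreated WT (SD, n = 3 each).

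The Serpina3 sum was 5650.4, 5853 and 5695 CPM in treated KI, against 9704, 9696 and 9955 CPM in treated WT. In untreated cells it was 6387, 6408 and 6078 CPM in KI, against 10392, 10311 and 9748 CPM in WT. The KI to WT ratio was 0.586 with CP775146 and 0.62 without it. As shares of all counts, the Serpina1 cluster held 0.195% to 0.205% in treated KI, 0.236% to 0.25% in untreated KI, 0.291% to 0.305% in treated WT and 0.327% to 0.369% in untreated WT. The Serpina3 cluster held 0.575% to 0.597% in treated KI, 0.647% to 0.683% in untreated KI, 0.9% to 0.912% in treated WT and 0.972% to 1.03% in untreated WT. No p is given for the sums, because the members were chosen with results of these data known.

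Within the Serpina1 cluster the make-up of the counts differed between the genotypes. Serpina1e held 2.98% ± 0.0755 of the cluster's counts in treated KI and 2.44% ± 0.122 in untreated KI, against 15.9% ± 0.401 in treated WT and 14.9% ± 0.365 in untreated WT (SD, n = 3 each). Serpina1b held 47.9% in treated KI and 51.8% in untreated KI, against 39.1% in treated WT and 39.7% in untreated WT. Serpina1d held 28.5% in treated KI and 25.3% in untreated KI, against 23.6% in treated WT and 22.7% in untreated WT. The shares of Serpina1a stayed between 6.51% and 6.90% as group means, and those of Serpina1c between 13.8% and 16%.

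Within the Serpina3 cluster the share of Serpina3m was lower with CP775146 in both genotypes. It held 6.03% ± 0.139 in treated KI and 6.16% ± 0.157 in treated WT, against 8.27% ± 0.158 in untreated KI and 8.51% ± 0.238 in untreated WT. Serpina3k held 71.9% to 75.2% as group means. Serpina3n held 18.7% in treated KI and 17.2% in untreated KI, against 19% in treated WT and 19.5% in untreated WT. Serpina3c held at most 0.0807% and Serpina3g at most 0.0154% as group means.

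**Figure D3:**
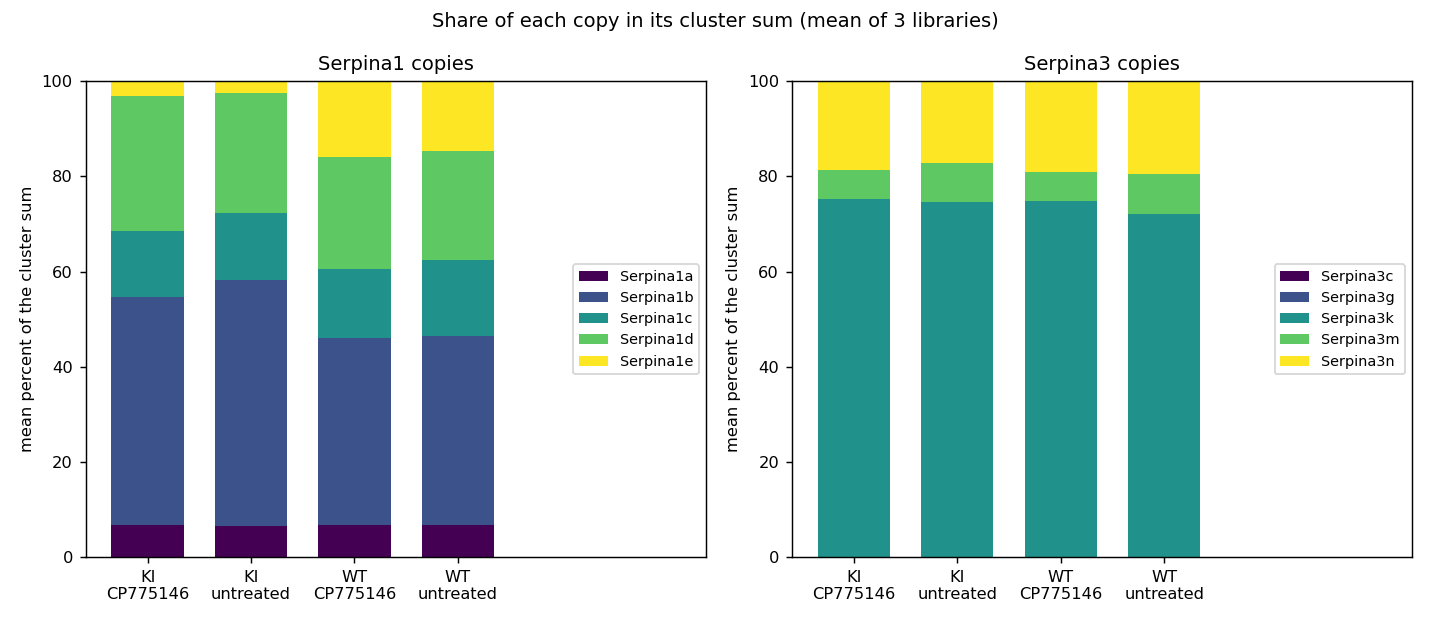
Mean share of each copy in the counts of its cluster, in percent, over the 3 libraries of each group, stacked to the whole. Serpina1e takes 2.98% and 2.44% in the KI groups and 15.9% and 14.9% in the WT groups, while Serpina3k takes 71.9% to 75.2% in all 4 groups.

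Per length, Serpina3k was the highest copy in every group, with 2095 ± 49.1 CPM per kb of exon in treated KI, 2278 ± 74.9 in untreated KI, 3555 ± 73.9 in treated WT and 3549 ± 68.7 in untreated WT. Serpina3n followed, with 520 to 522 CPM per kb in the KI groups and 901 to 958 in the WT groups as means. In untreated WT, Serpina1b (571 ± 19.3 CPM per kb) and Serpina1d (567 ± 50.3) came next, and these neighbours did not differ beyond their spread. Serpina3m (503 ± 30.5), Serpina1c (409.8 ± 52.5), Serpina1e (320.4 ± 25.5) and Serpina1a (129.8 ± 10.8) came after them. Serpina3c and Serpina3g were at 3.25 and 0.733 CPM per kb. In untreated KI the order of the 8 higher copies was the same but for Serpina1e. It had 34.6 ± 1.84 CPM per kb, below Serpina1a at 81.5 ± 1.62, and in treated KI 36.2 ± 0.937, below Serpina1a at 72.2 ± 1.46. The exonic length of Serpina1b, 2415 bases, includes exons far from its coding part, which lowers its value per length.

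**Figure D4:**
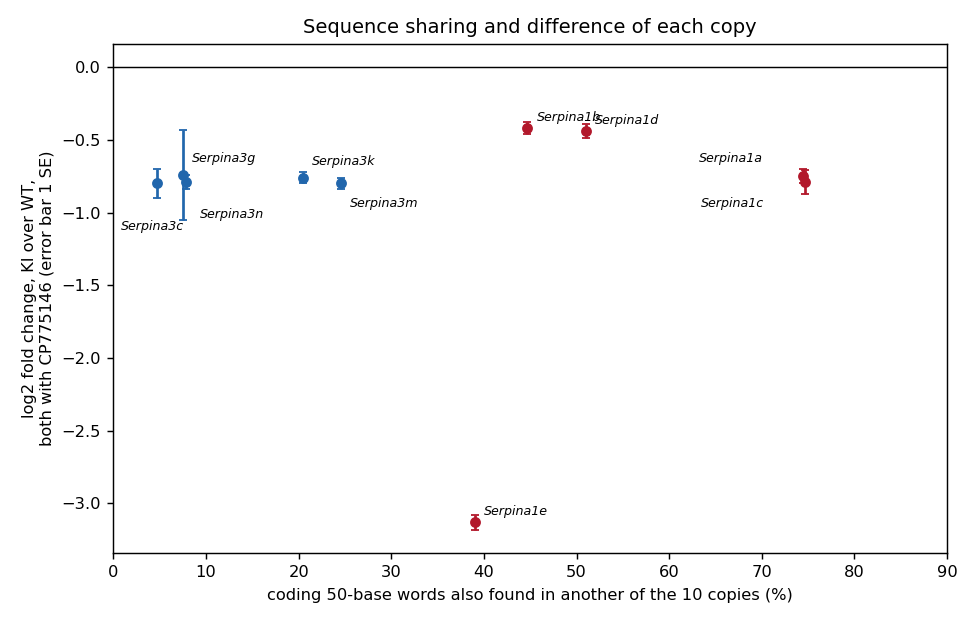
For each copy, the percentage of its coding 50-base words that another of the 10 copies also holds (x axis) and its log2 fold change between treated KI and treated WT (y axis, error bar 1 SE), Serpina1 copies in red and Serpina3 copies in blue. Serpina1e stands at 39% and -3.13, and the other copies lie between -0.80 and -0.42 at any level of sharing.

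CP775146 lowered a few of the copies, most of all Serpina3m. In KI, Serpina3m had 341, 361 and 335 CPM with CP775146, against 534, 536 and 491 CPM without it (log2 fold change -0.59 ± 0.04 SE, edgeR adjusted p = 5.51e-12). In WT it had 615, 585 and 609 CPM with CP775146, against 891, 897 and 804 CPM without it (-0.52 ± 0.04, edgeR adjusted p = 5.15e-11). Treated and untreated libraries did not overlap in either genotype, and the difference between the genotypes was -0.07 ± 0.06 (interaction, edgeR adjusted p = 0.575).

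In KI, 5 of the 10 copies fell with CP775146 and 5 were not called, where 19.1% of all tested genes were called lower and 37.2% in either direction. In 6 copies the treated libraries all lay below the untreated ones, where 26.9% of tested genes did and 51.9% did not overlap in either direction. Serpina1b fell to 909, 957 and 958 CPM with CP775146, against 1201, 1212 and 1154 CPM without it (log2 fold change -0.34 ± 0.04 SE, edgeR adjusted p = 1.95e-08). Serpina1a fell by 0.17, Serpina1c by 0.24 and Serpina3k by 0.12 on the log2 scale (edgeR adjusted p = 0.00418, 0.0273 and 0.00831). The call of Serpina3k was lost without untreated KI replicate 1 (adjusted p = 0.0516) or without treated KI replicate 1 (0.0533), and the count of copies called was then 3. The call of Serpina1c was lost without any of the 3 treated KI libraries, without untreated KI replicate 1 or 2, and without any of the 3 treated WT libraries, with adjusted p of 0.0509 to 0.0768. Serpina1e was not called, with 58.6, 60 and 57 CPM in treated KI, against 53.2, 59.1 and 55.4 CPM in untreated KI (log2 fold change 0.07 ± 0.05 SE, edgeR adjusted p = 0.349).

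In WT, 3 of the 10 copies fell with CP775146 and 7 were not called, where 22.3% of all tested genes were called lower and 45% in either direction. In 2 copies the treated libraries all lay below the untreated ones, where 24.4% of tested genes did and 49% did not overlap in either direction. Besides Serpina3m, Serpina1b fell by 0.13 and Serpina1c by 0.25 on the log2 scale (edgeR adjusted p = 0.00492 and 0.0162). The libraries of Serpina1c overlapped, with 465, 453 and 487 CPM in treated WT, against 562, 627 and 484 CPM in untreated WT. Its call was lost without untreated WT replicate 1 (adjusted p = 0.0536) or without treated WT replicate 2 (0.0784). Serpina1e had a log2 fold change of -0.01 ± 0.05 (edgeR adjusted p = 0.836).

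The count in WT moved with single libraries and with the scaling. Without untreated WT replicate 3, Serpina1d (log2 fold change -0.12, adjusted p = 0.0306) and Serpina3n (-0.16, 0.00136) were called too, and 5 copies were then called. Without untreated WT replicate 1, Serpina1a was called (-0.14, adjusted p = 0.0221) and so was Serpina3g (-0.84, 0.0124). Serpina3g was also called without untreated WT replicate 2 (adjusted p = 0.0477) or treated WT replicate 2 (0.0469). Scaling by total counts alone put the median of all genes at -0.104, against -0.01 with TMM, and gave 9 copies called lower, and the value of Serpina3k, 0 under TMM, was then -0.10.

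The cluster sums with CP775146 were 0.856 (Serpina1) and 0.911 (Serpina3) of those without it in KI, with no overlap of libraries. In WT the ratios were 0.925 and 0.964, and libraries overlapped. Both comparisons of CP775146 share untreated libraries with the comparison that chose the copies.

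A difference between genotypes in the response to CP775146 was called for 1 of the 10 copies, a share near that of all tested genes. The interaction also uses the untreated libraries of the comparison that chose the copies. Serpina1b had an interaction of -0.20 ± 0.05 on the log2 scale (KI response minus WT response, edgeR adjusted p = 0.016), from a fall of 0.34 in KI and a fall of 0.13 in WT. The other 9 copies were not called, where 7.11% of all tested genes were called, 4.33% lower and 2.78% higher. The Serpina1b call was lost without treated KI replicate 1 (adjusted p = 0.0631), untreated KI replicate 2 (0.0513) or treated WT replicate 3 (0.0636), and no copy was then called. Serpina1e had an interaction of 0.08 ± 0.07 (edgeR adjusted p = 0.574).

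The upstream sequence of the Serpina1 copies is shown because all 5 were lower in KI and Serpina1e most of all. RefSeq promoter windows (GRCm38.p6) were at hand for 8 of the 10 copies, and those of Serpina3k and Serpina3m were not used. A run of 94 bases could be aligned in the 5 Serpina1 windows on a shared GTTAAT, with 10 variable positions, given in capitals, all on the minus strand.
Serpina1a, chr12:103863627-103863720: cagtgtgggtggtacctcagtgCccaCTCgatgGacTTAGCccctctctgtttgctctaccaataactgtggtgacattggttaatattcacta
Serpina1b, chr12:103738202-103738295: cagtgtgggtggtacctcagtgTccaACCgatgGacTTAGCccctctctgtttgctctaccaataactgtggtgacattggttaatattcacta
Serpina1c, chr12:103904964-103905057: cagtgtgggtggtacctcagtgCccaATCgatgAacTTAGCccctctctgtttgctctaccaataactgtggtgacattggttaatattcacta
Serpina1d, chr12:103773636-103773729: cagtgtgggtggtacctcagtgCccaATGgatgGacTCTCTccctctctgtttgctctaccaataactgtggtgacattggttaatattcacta
Serpina1e, chr12:103956962-103957055: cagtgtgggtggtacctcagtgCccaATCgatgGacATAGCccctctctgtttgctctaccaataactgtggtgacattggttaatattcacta

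Serpina1a, Serpina1c and Serpina1e each differed from the other 4 copies at 1 of these positions, Serpina1b at 2 and Serpina1d at 5. GTTAAT lay 16 to 27 bases before the RefSeq start in 4 copies and 78 bases before it in Serpina1e. These distances depend on the annotation. The Ensembl genes used for counting run past this stretch in Serpina1b and Serpina1e, to bases 103830373 and 103958975. Whether the distance bears on the levels was not tested. GTTAAT on either strand was in 6 of the 8 windows searched and in 7.1% of all windows. On either strand, TTNNGNAAT, a C/EBP pattern, was in 4 of the 8 windows searched (Serpina1a, Serpina3c, Serpina3g and Serpina3n) and in 11.5% of 32851 windows of the same length. TTCNNNGAA, a STAT pattern, was in Serpina3g alone of the 8 and in 8.3% of all windows. A match describes the letters of the reference, and the sequence carried by these animals was not tested.

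The genes around the clusters lie on the same stretch of chromosome 12. Within 2 Mb on either side, 46 genes that are no member were tested of 106 listed. Between treated KI and treated WT, 11 rose and 14 fell (54.3%), where 42.5% of all tested genes were called. Of the 46, 14 were other Serpina genes, of which 2 rose and 9 fell. Of the 32 that were not, 9 rose and 5 fell (43.8%), a share near that of all genes. Within 5 Mb the share was 43.6% of 78. Ppp4r4, a regulatory subunit of protein phosphatase 4, had 16.2 ± 0.685 CPM in treated KI and 34.6 ± 2.33 CPM in treated WT (log2 fold change -1.09 ± 0.06, edgeR adjusted p = 3.27e-15). Gm8893, listed within the span of Serpina1b, had 15.4 ± 1.01 CPM in treated KI and 25.6 ± 0.983 CPM in treated WT (-0.73 ± 0.07, edgeR adjusted p = 1.49e-09). A difference in copy number or in strain sequence of chromosome 12 and a difference in expression cannot be told apart from these counts.

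The other Serpina genes of the region were called lower more often than higher. Over all libraries Serpina10 averaged 103 CPM, and the next highest of those tested, Serpina11, 9.18 CPM. Of 11 tested of 15 listed, 2 rose and 7 fell between treated KI and treated WT (81.8%, against 42.5% of all genes). Serpina12, the adipokine vaspin, had 1.17, 0.92 and 0.985 CPM in treated KI, against 3.91, 4.15 and 4.05 CPM in treated WT (log2 fold change -1.97 ± 0.15, edgeR adjusted p = 4.22e-12). Serpina11 had 5.74 ± 0.0876 CPM in treated KI and 12.1 ± 0.806 CPM in treated WT (-1.07 ± 0.09, edgeR adjusted p = 2.41e-11). Serpina10, the protein Z-dependent inhibitor of coagulation, rose (0.28 ± 0.06, edgeR adjusted p = 0.000592). Serpina5, the protein C inhibitor, had 3.9, 3.8 and 4.14 CPM in treated KI, against 2.17, 2.55 and 1.86 CPM in treated WT (0.84 ± 0.14, edgeR adjusted p = 1.26e-05).

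Serpins elsewhere in the genome went mostly the other way. Of 15 tested, 8 rose and 3 fell between treated KI and treated WT (73.3%, against 42.5% of all genes), with a median log2 fold change of 0.43. Over all tested genes, 20.5% were called higher and 22% lower. Serpinb6a, an intracellular serpin, had 160.3 ± 2.57 CPM in treated KI and 75.6 ± 1.56 CPM in treated WT (log2 fold change 1.08 ± 0.04, edgeR adjusted p = 1.76e-19), and Serpinb6b had 21.3 ± 0.65 and 5.32 ± 0.894 CPM in the same groups (2.0 ± 0.09, edgeR adjusted p = 4.81e-17). Serpinb9, an intracellular inhibitor of granzyme B, rose 0.84 ± 0.05 (edgeR adjusted p = 5.29e-14). Serping1, the C1 inhibitor of complement, fell, with 313 ± 3.24 CPM in treated KI and 476 ± 6.79 CPM in treated WT (-0.60 ± 0.03, edgeR adjusted p = 1.22e-14).

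Acute-phase genes of the liver, among which Serpina3n is usually counted, were mostly lower as well. Of 25 tested that are no member, 20 fell and 3 rose between treated KI and treated WT (92%, against 42.5% of all genes), with a median of -0.41. Fibrinogen chain Fgg had 341 ± 12.6 CPM in treated KI and 569 ± 12.4 CPM in treated WT (log2 fold change -0.74 ± 0.04, edgeR adjusted p = 1.84e-15), and the other named genes that fell were Hpx, the heme carrier (-0.61), Crp, the C-reactive protein (-0.76), and Fgb, another fibrinogen chain (-0.13). With CP775146, 15 of the 25 fell and 2 rose in KI (68%, against 37.2% of all genes), and 11 fell and 6 rose in WT (68%, against 45%). Alb, the gene of albumin, whose level drops in the acute phase, fell too, with 65623 ± 1309.8 CPM in treated KI and 107664 ± 3316 CPM in treated WT (-0.71 ± 0.04, edgeR adjusted p = 8.63e-16).

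Of 14 members of IL-6, STAT3 and C/EBP signalling, which regulates these genes, 3 rose and 3 fell between treated KI and treated WT (42.9%, against 42.5% of all genes). Il6ra and Il6st, the receptor chains for interleukin 6, fell by 0.52 and 0.55 on the log2 scale (edgeR adjusted p = 1.27e-10 and 8.96e-13). Nr3c1, the glucocorticoid receptor, fell by 0.52 (edgeR adjusted p = 4.62e-11), and the kinase gene Jak2 rose 0.35 (edgeR adjusted p = 1.91e-06). Osmr and Socs3, named after their values were seen, rose by 1.37 and 0.70 (edgeR adjusted p = 7.65e-10 and 0.00292). Of 12 liver transcription factors, 4 rose and 3 fell (58.3%). The 4 that rose were Foxa1 (0.39), Foxa2 (0.46), Nr5a2 (0.60) and Nr2f2 (0.70). The 3 that fell, named after their values were seen, were Onecut2 (-1.03), Foxa3 (-0.18) and Prox1 (-0.13). Hnf4a, named after its values were seen, was not called (0.04 ± 0.03, edgeR adjusted p = 0.389).

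Genes that fold, export or degrade alpha-1-antitrypsin in the endoplasmic reticulum were called about as often as all genes. Of 23 tested, 3 rose and 6 fell between treated KI and treated WT (39.1%, against 42.5% of all genes), with a median of -0.03. Sel1l, a scaffold of the degradation machinery, had 147 ± 3.76 CPM in treated KI and 215 ± 12.2 CPM in treated WT (log2 fold change -0.55 ± 0.04, edgeR adjusted p = 7.63e-12). Hspa5, the chaperone BiP, fell by 0.13, Derl1 by 0.17 and Derl2 by 0.33 (edgeR adjusted p = 0.00285, 0.000965 and 7.28e-07). Of 7 proteases that serpins of these families inhibit, 1 passed the filter, the elastase gene Cela1, with 4.39 ± 0.158 CPM in treated KI and 10.7 ± 0.824 CPM in treated WT (-1.28 ± 0.10, edgeR adjusted p = 6.98e-12).

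Genes whose levels were most like those of the copies were found by Pearson's r of log2 CPM over the 12 libraries, among 8307 genes with at least 10 CPM on average. The 12 libraries fall into groups and share the scaling, so r is a description. For Serpina1e, Mug2, Ces3a, A1bg and Pzp were among the 5 highest (r of 0.997 to 0.999). Mug2 and Pzp belong to the alpha-2-macroglobulin family, plasma proteins that trap proteases of many kinds. Mug2 had means of 43.4 CPM in treated KI and 43.1 in untreated KI, against 161 in treated WT and 159.8 in untreated WT. A1bg, a plasma glycoprotein, had 2.44 and 2.2 CPM in treated and untreated KI, against 19.1 and 20.4 CPM in treated and untreated WT. Ces3a, a liver carboxylesterase, had 81.1 and 79.9 CPM in the KI groups, against 230 and 228 CPM in the WT groups, with treated cells given first. For Serpina3n the 5 were Ugt1a1, Ces3a, Mug1, Ndufa4l2 and Pzp (0.990 to 0.996). For the Serpina1 sum they were Lipc, Ddit4, Mtss1, Plg and Rdh16f2 (0.989 to 0.996). For the Serpina3 sum they were Plg, Atg4c, C8b, Pzp and Mug1 (0.994 to 0.997). Plg encodes plasminogen and C8b a chain of complement, both secreted by the liver.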

How the data were processed

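RNA of 12 hepatocyte libraries was read on a HiSeq3000 in 2 rounds of sequencing. The deposited files hold raw counts per gene: per the file headers, the authors counted reads over Ensembl 83 exons (GRCm38) with featureCounts 1.6.2, with no option for strand, multi-mapping or overlapping features. The submitters' processing notes name FastQC 0.11.2, cutadapt 1.9, Subread, featureCounts 1.4.6-p4 and edgeR 3.18.1. The members and lists were chosen with earlier results of these data known.

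From these counts, genes were kept by filterByExpr (minimum count 10, total 15) and scaled by TMM. edgeR 4.0.16 (R 4.3.3) fitted its robust quasi-likelihood model over 4 groups of 3 libraries, with Benjamini-Hochberg adjusted p under 0.05 as a call over all 15664 genes. The fit was also run on simulated counts in which far fewer genes changed than were called here, so that run does not check the results above. Alternatives were other scalings, filters, DESeq2 1.42.0, limma 3.58.1, a replicate block, fits of the compared groups alone and leaving out each library. Named genes were all members, up to 4 genes of each list and of the flanks with the smallest adjusted p, and the 5 genes most like Serpina1e, Serpina3n and each sum. Libraries of treated KI and treated WT with the same replicate number deviated together over 8776 genes (r = 0.171, 0.127 and 0.181), so the block was also fitted to that pair. The pairing comes from these correlations and not from the labels. Coding sequences came from GENCODE M21 and promoter windows from RefSeq. A few genes that the naming rule or lists include are not reported here.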

Additional observations from a re-analysis of the deposited data

Results flagged for a closer look

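The response of Serpina1b to CP775146 differed between the genotypes by a test of the difference itself, with an interaction of -0.20 ± 0.05 on the log2 scale (edgeR adjusted p = 0.016). The response was -0.34 in KI and -0.13 in WT, and the 3 treated libraries lay below the 3 untreated ones in both. The call was lost without treated KI replicate 1 (edgeR adjusted p = 0.0631), untreated KI replicate 2 (0.0513) or treated WT replicate 3 (0.0636). Of all tested genes, 7.11% were called for the interaction, and of the 10 copies 1 was called.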

How the results depend on the processing

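Of 1045 values of single members under alternatives, 1002 counted as the same. For tested values this means the same side of the threshold, and for untested ones the same direction within 1 SD. Tested values called in neither fit could change sign and still count as the same, as for the Serpina3g interaction (0.15, with -0.35 to 0.4 under alternatives). Of the rest, 15 lost a call, 19 gained one, 1 reversed and 8 untested values moved by more than 1 SD. The reversal was Serpina3k for CP775146 in WT, at -0.10 with total-count scaling (adjusted p = 0.0209), against 0 with TMM. Total-count scaling also gave 9 members called there in place of 3. With it the log2 ratios of the Serpina1 sum were -0.58 (treated KI against treated WT), -0.50 (untreated KI against untreated WT) and -0.21 (CP775146 in WT), in place of -0.71, -0.60 and -0.11. Those of the Serpina3 sum were -0.63, -0.59 and -0.15, in place of -0.77, -0.69 and -0.05, and -0.20 in place of -0.13 for CP775146 in KI. By construction this scaling moves all genes of a library by the same factor. Counts of members called here include Serpina1e. Leaving out 1 library gave 9 to 10 members called between treated KI and treated WT, 3 to 5 for CP775146 in KI, 3 to 5 in WT and 0 to 1 for the interaction. Genes called for the interaction numbered 732 to 1468, against 1113 with all libraries, with 732 without treated KI replicate 1. Within 5 Mb, 10.3% of flanking genes were called for the interaction, against 6.52% within 2 Mb, and the cause was not tested. With the replicate block over all groups, 9, 3, 5 and 1 members were called (treated KI against treated WT, CP775146 in WT, CP775146 in KI, interaction), and 6638, 7023, 5761 and 1130 genes. With the block within each genotype these were 10, 3, 5 and 1 members and 6471, 6852, 5570 and 1010 genes. With the block in a fit of treated KI and treated WT alone, which was chosen after seeing the data, 10 members and 6948 genes were called. Over all comparisons, that pair included, r of same-numbered libraries was -0.191 to 0.242, and of others -0.225 to 0.304. The values of that pair lay within the range of the others, so these correlations do not establish a pairing. Serpina3g, with 18 to 68 counts per library, is the member that depth limits most, and these ranges cover counting error and library spread only.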
